A study of Mus musculus with 12 samples.

Results

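Cold exposure was compared with thermoneutrality in inguinal white adipose tissue (iWAT) of HIF2α AKO mice. All libraries that the labels place in these groups were taken, which gave 6 of the 12 RNA-seq libraries of the series, with 3 labelled cold HIF2α AKO and 3 labelled TN HIF2α AKO. The animals were 10-week-old C57BL/6 males. Both groups carried loxP-flanked Hif2a alleles together with Adipoq-Cre, and they differed in housing, which was 4 to 6 °C for 3 days in the cold group and 30 °C for 1 week in the TN group. The remaining 6 libraries came from WT mice with the floxed alleles and no Cre, kept under the same conditions. Their values are given where the AKO ones are set against them. They also enter the gene filter, the scaling and the estimate of spread behind the AKO tests, except where the 6 AKO libraries alone were fitted. The Adiponectin promoter drives Cre in mature adipocytes, so the other cells of the fat pad kept the gene, and the presence of Cre cannot be told apart from the loss of HIF2α. Temperature also cannot be told apart from the length of the exposure.

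iWAT is a subcutaneous fat depot in which thermogenic adipocytes, called beige adipocytes, form in the cold. Noradrenaline released from sympathetic nerves acts on β-adrenergic receptors of the adipocyte, Gα(s) and adenylyl cyclase raise cAMP, and protein kinase A (PKA) then drives lipolysis and the transcription of thermogenic genes. UCP1, the defining protein of these cells, lets protons pass the inner mitochondrial membrane so that the oxidation of fuel is released as heat, and the response therefore involves mitochondria, fatty acid oxidation and fuel supply as well as Ucp1 itself. HIF2α, encoded by Epas1, is the oxygen-regulated subunit of a transcription factor that prolyl hydroxylases of the Egln family mark for degradation when oxygen is available.

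The targeted gene was examined first. In CPM (counts relative to the library total, scaled between libraries by TMM and not by gene length), Epas1 (17:86753700-86833410, GRCm38) stood at 289, 394 and 360 in TN AKO replicates 1, 2 and 3 and at 985, 743 and 748 in cold AKO replicates 1, 2 and 3. The WT libraries held between 278 and 430 CPM at TN and between 562 and 743 CPM in the cold. Epas1 was therefore no lower in the libraries labelled HIF2α AKO than in WT, with a log2 difference of -0.05 ± 0.20 (SE) at TN and 0.40 ± 0.20 in the cold. The floxed part of the gene is not resolved by counts over the whole gene, and the genotype is given throughout as labelled.

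White fat markers were present in all 6 libraries, with Adipoq, the adipocyte hormone whose promoter drives Cre, between 1182 and 2122 CPM. Cold AKO replicate 1 and TN AKO replicate 2 also held skeletal muscle transcripts, since a list of 20 muscle genes summed to 2173 and 2416 CPM there and to between 129 and 181 CPM in the other libraries. One such library lies in each group, none of the 20 muscle genes passed the test, and counts of called genes are given with and without both libraries where these differed by much, with the named genes whose call was lost. The libraries held between 22368316 and 31152101 counts on genes, and at that depth counting error is small except in genes with a few counts. A first principal component with 66.0% of the variance placed the cold libraries between 28.5 and 62.5 and the TN libraries between -65.4 and -24.0, with cold AKO replicate 1 and TN AKO replicate 1 at the ends.

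After the filter on low counts 15306 genes were tested, and 4138 of them differed between cold and TN AKO libraries at an adjusted p under 0.05 in edgeR's quasi-likelihood test, which is 27.0% of those tested. Higher levels in the cold were found for 2381 genes (15.6%) and lower levels for 1757 (11.5%). The rises were the larger changes, since 890 genes rose and 173 fell by at least 1 on the log2 scale. The CPM of the 3 cold and 3 TN libraries did not overlap for 50.5% of the genes, with the cold libraries above for 24.9% and below for 25.6%. The number of falls moved most with the libraries at the ends of the first component, with 314 genes called lower and 1299 higher without cold AKO replicate 1 and 383 and 1352 without TN AKO replicate 1. It was 895 without cold AKO replicate 2 and 829 without TN AKO replicate 3, where 1915 and 1621 genes were called higher. Without both muscle-containing libraries 1514 genes were called, 1239 higher and 275 lower, and 1493 of these were among the 4138, which is 36.1% of the larger set.

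**Figure D1:**
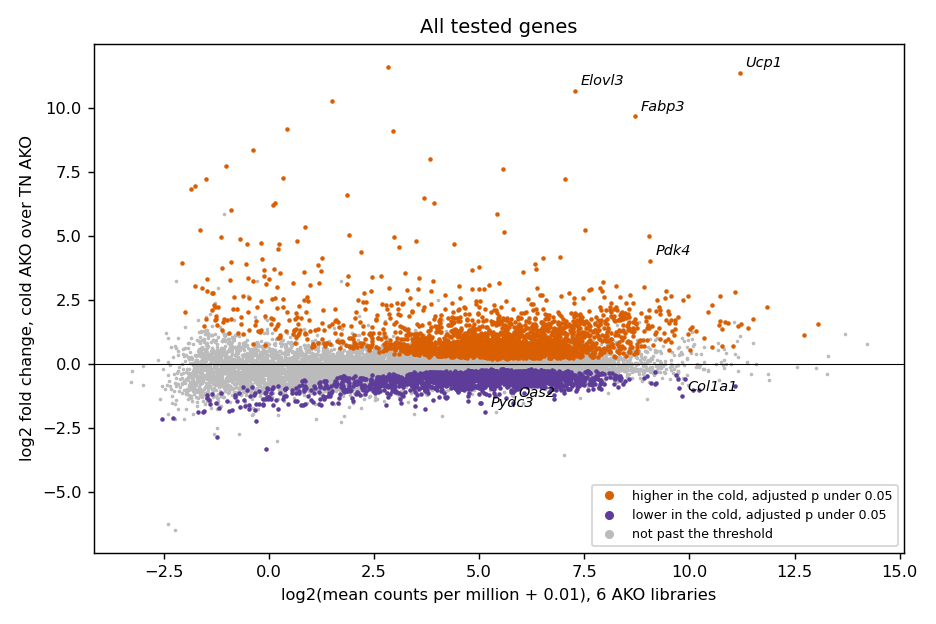
Each point is 1 of the 15306 tested genes, with log2(mean CPM + 0.01) over the 6 AKO libraries on the horizontal axis and the log2 fold change of cold over TN on the vertical axis; genes with an adjusted p under 0.05 are coloured. Ucp1, Elovl3 and Fabp3 lie far above the other abundant genes, and the called falls, such as Pydc3, Oas2 and Col1a1, stay within a narrower band below 0.

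The widest change was in the thermogenic effector genes, of which 16 of 17 rose in the cold and none fell, and the median of their log2 fold changes was 4.17 against -0.05 over all genes. Ucp1 (8:83290352-83298452) stood at 0.740, 0.722 and 3.85 CPM in the TN AKO libraries and at 5897, 4046 and 4146 CPM in the cold ones. Every cold library was above every TN library, and Ucp1 rose by 11.37 ± 0.76 on the log2 scale (SE, adjusted p = 2.01e-05, edgeR). Elovl3, which elongates very long-chain fatty acids, was at 0, 0.283 and 0.247 CPM at TN and at 443, 249 and 237 CPM in the cold (10.67 ± 0.69). Fabp3, a fatty acid-binding protein of oxidative tissues, moved from 0.312, 1.26 and 1.41 CPM to 1135, 632 and 737 CPM (9.68 ± 0.55). Cold AKO replicate 1, one of the libraries with muscle transcripts, was the highest of the cold libraries for each of these genes. Fabp3 is also expressed in muscle, and the groups remained apart without both muscle-containing libraries, with a log2 fold change of 9.60.

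Dio2, the deiodinase that makes active thyroid hormone inside the cell, was at 0.857, 1.66 and 2.65 CPM at TN and at 368, 199 and 222 CPM in the cold (7.24 ± 0.47). Cidea, a lipid droplet protein of brown and beige fat, was between 20.3 and 39.0 CPM at TN and between 782 and 1336 CPM in the cold, 32.0-fold higher in the fit. The cytochrome oxidase isoforms Cox7a1 and Cox8b rose by 5.84 ± 0.57 and 4.17 ± 0.48 on the log2 scale, and the groups overlapped for neither. Bmp8b, a secreted factor of thermogenic fat, was at 0.0779, 0.0628 and 0.0707 CPM at TN and at 9.97, 6.67 and 4.89 CPM in the cold, so its log2 fold change of 6.59 ± 0.73 rests on few TN counts. Smaller rises were found for the acyl-CoA thioesterase Acot11 (4.16), the lipid droplet protein Plin5 (3.91), the proton channel Otop1 (3.72), Fgf21 (3.14), the potassium channel Kcnk3 (2.91) and the mitochondrial inner membrane protein Letmd1 (2.85). Eva1a was the effector that did not pass, at 1.17, 2.20 and 1.41 CPM at TN and 2.57, 3.90 and 2.36 CPM in the cold (0.88 ± 0.31, adjusted p = 0.0559). The count of 16 was the same without both muscle-containing libraries.

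**Figure D2:**
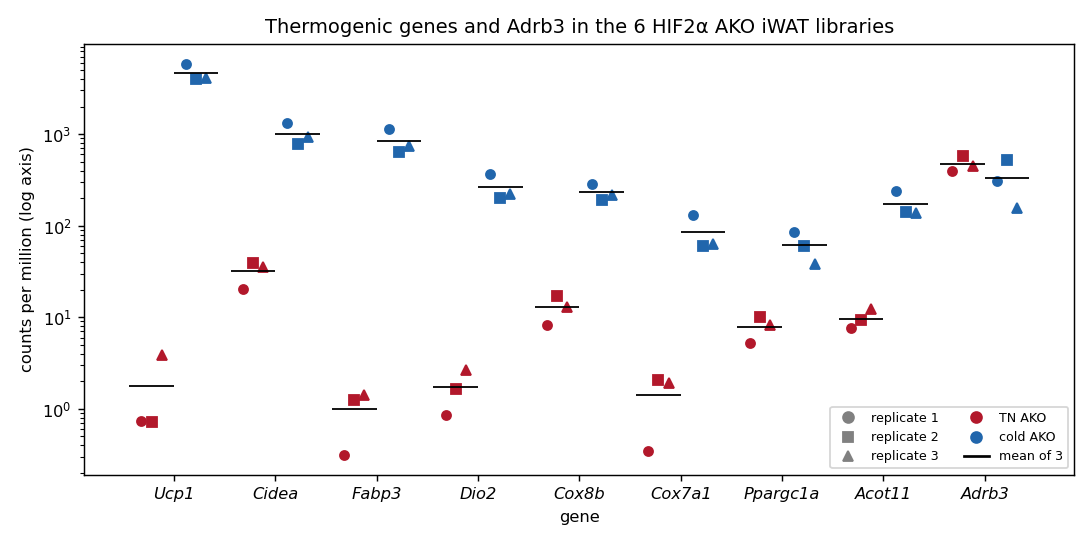
CPM on a log axis for 8 thermogenic genes and Adrb3 in each of the 6 AKO libraries, with TN in red, cold in blue, a symbol for each replicate number and a line at the mean of 3. For Ucp1 the TN libraries lie between 0.722 and 3.85 and the cold ones between 4046 and 5897, whereas the libraries of both groups overlap for Adrb3.

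Other genes with the largest rises included metabolic and secreted factors outside the thermogenic list. Slc27a2, a transporter and activator of very long-chain fatty acids, rose by 7.60 ± 0.48 on the log2 scale, from between 0.251 and 0.974 CPM to between 64.7 and 146 CPM. Gyk, which phosphorylates the glycerol that lipolysis releases, was at 8.22, 10.7 and 9.22 CPM at TN and at 497, 310 and 257 CPM in the cold (5.24 ± 0.28, adjusted p = 1.55e-05). Slc25a34, a mitochondrial carrier, rose by 5.17 ± 0.46, and the plasma protein genes Kng2 and Cpn2 rose by 6.48 ± 0.54 and 6.28 ± 0.65. Lgr6, a receptor for R-spondins, went from 0.117, 0.0942 and 0.106 CPM to 41.7, 25.1 and 18.3 CPM (8.02 ± 1.10).

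For 3 of the genes with the largest rises, the TN AKO libraries held almost no counts. Sgk2, a kinase related to SGK1, had 0 counts over the 3 TN libraries and 396 over the cold ones, and against 3 counts over the TN group its level was at least 161-fold higher. The RNA gene A530050N04Rik likewise went from 0 to 978 counts, at least 397-fold higher by the same limit. Fam131c had 2 counts at TN and 1053 in the cold, a ratio of 641 with a 95% exact counting interval from 177 to 5300.

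Several regulators of the thermogenic program rose, while others did not move beyond their spread. Of 22 tested regulators, 11 rose and none fell, and 9 were called without both muscle-containing libraries. Ppargc1a, the coactivator PGC-1α that drives mitochondrial biogenesis, was at 5.26, 10.1 and 8.27 CPM at TN and at 85.5, 59.8 and 38.6 CPM in the cold (2.95 ± 0.34), and Ppargc1b rose by 2.23 ± 0.24. The 3 estrogen-related receptor genes, whose products work with PGC-1α on mitochondrial genes, rose together, Esrra by 1.85 ± 0.19, Esrrg by 2.58 ± 0.29 and Esrrb, with under 1 CPM at TN, by 3.71 ± 0.49. Ppara, a nuclear receptor for fatty acids, rose by 2.98 ± 0.47 and Cebpb by 2.13 ± 0.31. Prdm16, a determinant of brown and beige identity, was at 9.58, 19.7 and 17.9 CPM at TN and at 38.0, 35.4 and 39.2 CPM in the cold (1.25 ± 0.26, adjusted p = 0.00727). Pparg, the master regulator of adipocyte differentiation, did not pass (0.68 ± 0.33, adjusted p = 0.140), and TN AKO replicate 1, at 63.1 CPM, lay far below the 160 and 173 CPM of the other TN libraries. Ebf2 and Irf4 overlapped between the groups, at log2 fold changes of 0.24 and -0.52.

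Of 13 markers used to name beige and brown fat cells, 2 were called higher and 2 lower, shares near those over all genes. The surface proteins P2rx5 and Slc36a2 rose, by 1.97 ± 0.38 and 1.41 ± 0.33 on the log2 scale. Tmem26 and Sp100 were lower in the cold by the test, at log2 fold changes of -1.02 ± 0.31 and -0.79 ± 0.19, and the call for Tmem26 was lost without both muscle-containing libraries. Calls in this list were few and moved with 1 library, since the number called lower was 3 without cold AKO replicate 3, 1 without cold AKO replicates 1 or 2 or TN AKO replicate 2, and 0 without TN AKO replicate 1. The number called higher was 4 without TN AKO replicate 2 and 1 without cold AKO replicate 1 or TN AKO replicate 1.

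Heat production that does not need UCP1 was represented by 12 tested genes of creatine and calcium cycling. Here 5 rose and none fell, and 3 were called without cold AKO replicate 1, TN AKO replicate 1, TN AKO replicate 3 or both muscle-containing libraries. Ckb, the creatine kinase of thermogenic fat, was at 42.4, 53.0 and 52.0 CPM at TN and at 352, 191 and 218 CPM in the cold (2.37 ± 0.23). Alpl, a phosphatase placed in the same cycle, rose by 1.85 ± 0.22, and Atp2a2, the calcium pump SERCA2, by 1.04 ± 0.13.

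Upstream of these genes, the path from adrenergic receptors to PKA changed mostly upward, with 15 of 30 tested genes higher and 2 lower in the cold. The receptors went different ways. Adrb3, the main β-adrenergic receptor of rodent adipocytes, was at 391, 578 and 445 CPM at TN and at 307, 523 and 156 CPM in the cold, so the groups overlapped and the difference of -0.52 ± 0.43 did not pass. Adrb1 rose from 2.18, 3.64 and 2.93 CPM to 12.4, 11.9 and 10.3 CPM (1.98 ± 0.35), and Adra1a, an α1 receptor, by 2.24 ± 0.39. Gpr3, a receptor that signals through Gα(s) without a ligand, was under 1 CPM in each library and rose by 2.77 ± 0.67, a call lost without both muscle-containing libraries.

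Downstream of the receptors, Gnas, which encodes Gα(s), rose by 1.52 ± 0.18, and Adcy3, an adenylyl cyclase, went from 40.7, 43.2 and 45.2 CPM to 343, 189 and 252 CPM, 6.07-fold higher in the fit. Among PKA subunits, the catalytic Prkaca rose by 1.35 ± 0.26, and the regulatory Prkar2b, the main RII subunit of adipocytes, went from 249, 477 and 321 CPM to 1499, 1093 and 883 CPM (1.73 ± 0.35). Akap1, which anchors PKA at mitochondria, rose by 1.41 ± 0.21, as did Pde4d, a phosphodiesterase that degrades cAMP, by 1.21 ± 0.19. Creb1, a transcription factor that PKA phosphorylates, was lower by the test (-0.42 ± 0.10), a call lost without cold AKO replicate 1, TN AKO replicate 1 or both muscle-containing libraries. The number called lower was 0 without either of these libraries, 1 without cold AKO replicate 2 or TN AKO replicate 3 and 3 without TN AKO replicate 2. Without both muscle-containing libraries 12 genes of this list were called higher and none lower.

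Mitochondrial energy genes were higher in the cold almost without exception. All 17 tested genes of the TCA cycle rose, with a median of 1.94 on the log2 scale, and 16 were called without both muscle-containing libraries. Idh3a (9:54586334-54604661), a subunit of the NAD-dependent isocitrate dehydrogenase, was at 87.3, 214 and 197 CPM at TN and at 1614, 1023 and 1007 CPM in the cold (2.87 ± 0.38). Cs, the citrate synthase, rose by 2.03 ± 0.29. The smallest rises were those of Idh2 (0.79 ± 0.16) and Suclg2 (0.63 ± 0.19), the latter not called without both muscle-containing libraries. For each of these genes TN AKO replicate 1 was the lowest TN library and cold AKO replicate 1 the highest cold library.

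Of 80 tested subunits of oxidative phosphorylation, 76 rose and none fell, with a median of 1.61. All 35 of complex I, all 4 of complex II and all 9 of complex III passed, as did 14 of 17 of complex IV and 14 of 15 of complex V. The complex I subunits lay between Ndufa7 at 0.85 ± 0.19 and Ndufb6 at 2.15 ± 0.29. In complex III the Rieske protein gene Uqcrfs1 rose from 109, 173 and 133 CPM to 792, 544 and 536 CPM (2.17 ± 0.26). Within complex IV the isoforms differed, since the common subunits Cox8a and Cox7a2 rose by 1.25 ± 0.24 and 1.50 ± 0.22 and Cox7a2l, whose call was lost without both muscle-containing libraries, by 0.32 ± 0.09, beside 4.17 for Cox8b and 5.84 for Cox7a1. Atp5g1, which encodes the c subunit of ATP synthase, was the complex V gene that did not pass, at 32.9, 24.6 and 28.7 CPM at TN and 32.8, 33.7 and 31.8 CPM in the cold. The count of 76 became 74 without both muscle-containing libraries. Proteins of the mitochondrial ribosome, which translates the mitochondrial genome, rose less, with 69 of 76 called higher, none lower and a median of 0.83. Mrps36 led them at 2.17 ± 0.22 and Mrpl24 was the lowest, at 0.14 ± 0.07. The count of 69 became 57 without both muscle-containing libraries. It was 55 without cold AKO replicate 1, 56 without TN AKO replicate 1 and 60 without TN AKO replicate 3.

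Fatty acid oxidation followed the same direction, with 19 of 21 genes of the mitochondrial path higher and a median of 1.84. Slc25a20, the carrier of acylcarnitines into the matrix, went from 46.9, 58.2 and 39.9 CPM to 573, 374 and 382 CPM (3.20 ± 0.28). Acaa2, the thiolase of the last step, rose by 3.01 ± 0.28 and Cpt2 by 1.74 ± 0.34. The carnitine palmitoyltransferases of the outer membrane differed. Cpt1b, the muscle and brown fat form, rose by 2.46 ± 0.31 from under 1 CPM at TN, whereas Cpt1a, the liver form, overlapped between the groups, at 143, 88.1 and 74.8 CPM at TN and 132, 104 and 109 CPM in the cold. Peroxisomal oxidation genes rose in 12 of 18 cases, among them Ehhadh (6.07-fold), Acaa1b (2.56 ± 0.57 on the log2 scale) and the transporter Abcd3 (2.40 ± 0.32). Over all genes 15.6% were called higher. The count of 12 became 8 without cold AKO replicate 1, TN AKO replicate 1 or both muscle-containing libraries, and 9 without TN AKO replicate 3. Acot3, a peroxisomal thioesterase in a cluster of near-identical genes, had 0 counts over the TN libraries and 48 over the cold ones, at least 19.5-fold higher against 3 counts over the TN group.

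Of 13 tested genes of pyruvate entry and pyruvate dehydrogenase, 10 rose and none fell, with a median of 1.89. Both kinds of member rose, the complex itself (Dlat 2.13 ± 0.37), the carrier that brings pyruvate in (Mpc1 2.15 ± 0.37), and kinases that switch the complex off (Pdk2 1.90 ± 0.30). Pdk4, the kinase induced in fasting, had the largest change, from 57.3, 55.3 and 71.3 CPM to 1269, 1211 and 543 CPM (4.04 ± 0.50), with cold AKO replicate 3 well below the other cold libraries but above all TN ones. Of 28 glucose uptake and glycolysis genes, 17 rose and none fell, with a median of 1.07, and 11 were called without cold AKO replicate 1, without TN AKO replicate 1 or without both muscle-containing libraries. Ldhb, the heart-type lactate dehydrogenase, rose by 2.98 ± 0.34 and Gapdh by 1.66 ± 0.27. Slc2a4, the insulin-regulated transporter GLUT4, rose by 1.33 ± 0.45, a call lost without both muscle-containing libraries, while Slc2a1, which encodes GLUT1, overlapped between the groups (-0.19 ± 0.16).

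Genes of the lipid droplet and of lipid supply rose, but with wide spread among TN libraries. In lipolysis and droplet coating 9 of 14 genes rose, 5 without TN AKO replicate 1 or without both muscle-containing libraries. Pnpla2, which encodes the triglyceride lipase ATGL, was at 1244, 1768 and 1367 CPM at TN and at 4255, 3781 and 3773 CPM in the cold (1.43 ± 0.33, not called without both muscle-containing libraries), while Lipe, the hormone-sensitive lipase, did not pass (0.67 ± 0.30). Among droplet coats Plin2 rose by 2.06 ± 0.42 and Cideb by 4.10 ± 0.66 from a level under 1 CPM, and Plin1, the coat of white adipocytes, overlapped between the groups (0.68 ± 0.32).

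Lipid uptake genes rose in 15 of 22 cases, a count that fell to 6 without cold AKO replicate 1, to 7 without TN AKO replicate 1 and to 5 without both muscle-containing libraries. Lpl, the lipase that frees fatty acids from lipoproteins, went from 3256, 5164 and 4201 CPM to 10951, 8880 and 7935 CPM (1.14 ± 0.36, adjusted p = 0.0399), a call lost without both muscle-containing libraries. Vldlr rose by 1.85 ± 0.25 and the acyl-CoA synthetase Acsl5 by 1.53 ± 0.20. In triglyceride synthesis 8 of 16 genes rose, including Agpat2 (2.68 ± 0.58), Gpd1, which makes the glycerol backbone (2.25 ± 0.56, not called without both muscle-containing libraries), and the first acyltransferase Gpam (1.97 ± 0.26). Dgat1 rose by 1.29 ± 0.25, while Dgat2 was at 359, 2134 and 1775 CPM at TN and 2507, 2073 and 1921 CPM in the cold and did not pass.

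De novo lipogenesis showed how far the TN libraries differed among themselves. Only 5 of its 23 genes rose, and 2 did when any AKO library other than TN AKO replicate 2 was left out, or both muscle-containing ones. Acacb, the mitochondrial acetyl-CoA carboxylase whose product inhibits CPT1, went from 257, 350 and 222 CPM to 1831, 1513 and 1854 CPM (2.65 ± 0.44). Fasn, the fatty acid synthase, was at 4280, 20790 and 16673 CPM at TN and at 29645, 20904 and 22328 CPM in the cold (0.80 ± 0.60, adjusted p = 0.323). Acly, the ATP citrate lyase, was at 402, 3498 and 2484 CPM and at 4299, 3201 and 3749 CPM (0.82 ± 0.69). TN AKO replicate 1 was thus the lowest library for Fasn, Acly and Dgat2, and for the leptin gene Lep at 40.6 CPM against 250 and 420 CPM in the other TN libraries. The cholesterol list had 5 of 21 genes called higher, with a median of 1.13. For 19 of the 21 the cold libraries lay above the TN ones without overlap, beside 24.9% of all genes. The count of 5 became 1 without cold AKO replicate 1 or TN AKO replicate 1 and 3 without cold AKO replicate 3 or TN AKO replicate 2. None was called without both muscle-containing libraries, where the median was 1.09.

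Breakdown of branched-chain amino acids, a fuel of thermogenic fat, had 11 of 20 genes higher and none lower, with a median of 0.78. Bckdhb, a subunit of the branched-chain dehydrogenase, rose by 1.39 ± 0.25, and Slc25a44, the mitochondrial carrier of these amino acids, by 1.06 ± 0.25, the latter not called without both muscle-containing libraries. This count was 3 without cold AKO replicate 1 or TN AKO replicate 1, 4 without both muscle-containing libraries, 6 without TN AKO replicate 3 and 7 without cold AKO replicate 2. The proteasome, which thermogenic adipocytes need for protein turnover, had 23 of 37 subunits higher, led by the catalytic subunit Psmb5 (1.24 ± 0.16). Psmb9, an interferon-inducible subunit of the immunoproteasome whose locus overlaps that of another gene, was the one called lower (-0.52 ± 0.15), and no subunit was called lower without cold AKO replicates 1 or 2, TN AKO replicates 1 or 3 or both muscle-containing libraries. The proteasome count was 12 without cold AKO replicate 1 or TN AKO replicate 1, 13 without TN AKO replicate 3 and 11 without both muscle-containing libraries.

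**Figure D3:**
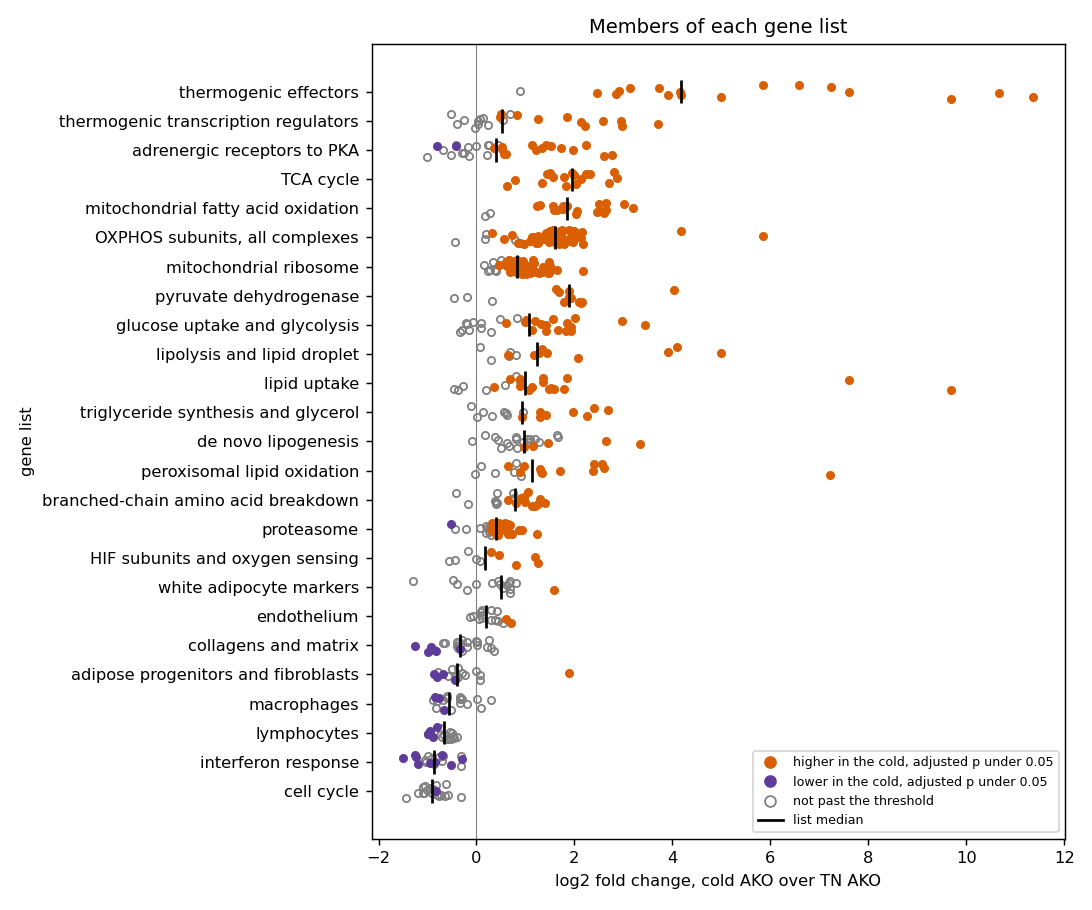
Log2 fold change of cold over TN in the AKO libraries for each tested member of 25 gene lists, with filled points past an adjusted p of 0.05 and a black line at the list median. Mitochondrial lists lie to the right of 0 almost entirely, and the matrix, macrophage, lymphocyte, interferon and cell cycle lists have medians between -0.35 and -0.90.

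Of 10 tested genes of HIF subunits and oxygen sensing, 5 rose and none fell. Beside Epas1 at 1.25 ± 0.20, Egln1, the main prolyl hydroxylase, went from 71.4, 109 and 91.5 CPM to 264, 193 and 169 CPM (1.20 ± 0.19). Hif1a rose by 0.46 ± 0.13 and Egln3 by 0.80 ± 0.25, and Hif3a was at -0.55 ± 0.38. Between 2 and 3 were called when any single AKO library was left out, and the calls for Epas1 and Egln1 were kept without both muscle-containing libraries, while those for Hif1a and Egln3 were lost. Genes that respond to hypoxia went different ways, with 7 of 28 higher, 2 lower and a median of 0.16. Over all genes 15.6% were called higher and 11.5% lower, and the median was -0.05. Vegfa, the angiogenic factor, rose by 0.87 ± 0.17, Higd1a by 1.50 ± 0.26 and the glycolytic Pgk1 by 1.92 ± 0.18. Car9, a carbonic anhydrase much used as a hypoxia marker, did not pass (-0.64 ± 0.26), and Cited2 and Kdm3a were lower by the test, at -0.55 ± 0.08 and -0.45 ± 0.10. The count of 7 became 3 without cold AKO replicates 1 or 2 or TN AKO replicates 1 or 3, and 4 without both muscle-containing libraries.

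Of 26 tested secreted factors of adipocytes, 9 were called higher, none lower and 17 were not called, Metrnl and Gdf15 among these. Fndc5, the precursor of irisin, went from 2.49, 4.02 and 1.94 CPM to 40.5, 16.5 and 24.8 CPM (3.27 ± 0.43), and Apln, which encodes apelin, rose by 2.24 ± 0.35. The batokine Nrg4 rose by 1.40 ± 0.33. The white adipocyte products Adipoq and Lep overlapped between the groups, at -0.01 ± 0.34 and 0.63 ± 0.67. Of 16 white adipocyte markers only Fabp4 rose (1.58 ± 0.39), a call lost without cold AKO replicate 1, TN AKO replicate 1 or both muscle-containing libraries. The S100b gene, known as a Schwann cell marker and also reported in beige adipocytes, was the only one of 13 nerve and Schwann cell genes to rise, from 2.88, 4.08 and 3.60 CPM to 36.7, 16.0 and 23.6 CPM (2.84 ± 0.32). Its locus overlaps that of another gene on the other strand. So do the loci of Bmp8b, Cebpb, Cideb, Gpr3, Gabpa, Irf7, Dbp, Hspd1, Nrg4, Mrpl24, Esrra and Atf5, among others named. Reads of such pairs may not be told apart.

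Several output genes of the circadian clock rose, with 6 of 18 clock genes higher and 1 lower, beside 15.6% and 11.5% of all genes. These counts became 4 and 0 without TN AKO replicate 3 or both muscle-containing libraries. Hlf, Dbp and Tef, which encode the PAR bZIP output factors, rose by 2.16 ± 0.35, 1.37 ± 0.33 and 1.27 ± 0.18, and the call for Dbp was lost without both muscle-containing libraries. Npas2, a partner of BMAL1, was lower at -1.50 ± 0.40, and its call was lost without cold AKO replicates 2 or 3, TN AKO replicate 3 or both muscle-containing libraries. The time of day of collection is not given in the sources used here. Of 22 genes of the unfolded protein and integrated stress responses, 4 rose, including Atf5 (1.73 ± 0.29) and Asns (1.39 ± 0.31), and 2 fell. These shares are near the 15.6% higher and 11.5% lower of all genes. The number higher became 2 without cold AKO replicate 1, cold AKO replicate 2, TN AKO replicate 1 or both muscle-containing libraries. The number lower became 0 without cold AKO replicates 1 or 3, TN AKO replicate 1 or both muscle-containing libraries, and 1 without cold AKO replicate 2 or TN AKO replicate 2. Hspa5, the chaperone BiP, did not pass (0.18 ± 0.13), and Hspd1, the mitochondrial chaperonin, rose by 1.28 ± 0.24. Hspd1 was 1 of 3 called higher among 15 heat shock and cold-inducible genes, a share near the 15.6% of all genes.

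The genes with the largest falls were mostly immune genes. Pydc3 (1:173673628-173698393), a pyrin domain gene of an interferon-inducible cluster, was at 49.7, 44.7 and 70.8 CPM at TN and at 16.3, 10.6 and 18.4 CPM in the cold, a 3.65-fold lower level (log2 fold change -1.87 ± 0.22, adjusted p = 0.000332). Its neighbour Pydc4 and Trim30b were lower at -1.73 ± 0.34 and -1.61 ± 0.27. These genes, like the Oas1 genes, have near-identical relatives, and how reads were split between them is uncertain. Tlr7, the endosomal receptor for single-stranded RNA, went from 46.1, 33.6 and 36.8 CPM to 9.68, 14.3 and 18.6 CPM (-1.45 ± 0.28). Gzma and Klre1, genes of cytotoxic lymphocytes, were lower at -1.59 ± 0.36 and -1.58 ± 0.29, and Mzb1, a plasma cell gene, at -1.53 ± 0.51. The list of the 15 largest falls also held Npas2, the matrix genes Fbn2 (-1.54) and Comp (-1.53), Gpr141 (-1.50), the calcium channel gene Cacna1e (-1.41) and Oas1g (-1.42). Of the 15, Mzb1, Npas2, Fbn2, Comp, Gpr141, Cacna1e, Oas1g and Oas3 were not called without both muscle-containing libraries.

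Of 19 interferon-stimulated genes 9 were called lower and none higher, with a median of -0.87. Oas2 (5:120730333-120749853), a sensor of double-stranded RNA, was at 96.0, 78.4 and 72.7 CPM at TN and at 19.0, 30.4 and 38.1 CPM in the cold (-1.50 ± 0.28, adjusted p = 0.00434), and Oas3 was at -1.50 ± 0.49. Irf7, the master regulator of type I interferon responses, went from 186, 122 and 154 CPM to 34.5, 70.0 and 96.1 CPM (-1.20 ± 0.39), and Stat2 stood at -0.70 ± 0.16. For Oas2 and Irf7, cold AKO replicate 1 was the lowest library and cold AKO replicate 3 the highest of the cold ones. The calls for Irf7 and Oas3 were lost without both muscle-containing libraries. The count of 9 became 18 under voom, 4 without cold AKO replicate 1, without TN AKO replicate 1 or without both muscle-containing libraries, 5 without cold AKO replicate 2 or TN AKO replicate 3, and 16 without cold AKO replicate 3.

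Promoters of these genes were read from RefSeq (GRCm38.p6), from 250 bases before to 50 bases after each start, to show the element through which the interferon factors IRF and STAT are known to bind. Of 19 interferon-stimulated genes 14 had a promoter entry, and 11 of these (78.6%) held the letters GAAANNGAA on either strand, beside 8.79% of the 11228 tested genes with an entry. Of the 11, 4 were called lower, Bst2, Gbp3, Oas1a and Stat2, and 7 were not called. The following windows belong to the called members other than Gbp3, whose change was the smallest of the list (-0.29), with the letters matched in capitals and further matches overlapping them in lower case.
Bst2, chr8:71537578-71537606, minus strand, log2 fold change -0.85: ccaggaaaatGAAACTGAAaggctgcagt
Oas1a, chr5:120907521-120907549, minus strand, log2 fold change -1.26, not called without both muscle-containing libraries: tcgggaaatgGAAACTGAAaatctacttc
Stat2, chr10:128270267-128270295, minus strand, log2 fold change -0.70: ctagggaaagGAAACTGAAaccagggtgc
The estrogen-related receptor element was searched as TCAAGGTCA on either strand. It lay in 34 of the 11228 promoters (0.303%), in 2 of 65 for subunits of oxidative phosphorylation, 1 of them also in the TCA cycle list, and in none of 13 for the thermogenic effectors, 17 for fatty acid oxidation or 67 for the mitochondrial ribosome. The 2 windows are shown as the matches among the subunits, of which 76 of 80 rose with or without the element.
Sdhd, chr9:50603800-50603828, plus strand, log2 fold change 1.99: agggcTCAAGGTCActctacaacccggaa
Atp5g3, chr2:73911360-73911388, plus strand, log2 fold change 0.90: gggaagacgcTCAAGGTCActttgtaaca
A match describes these letters in these windows and does not show that a factor was bound.

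Markers of immune cells had negative medians in the cold AKO libraries, and a minority of them passed the test. In bulk tissue, fewer cells of a type and less RNA per cell cannot be told apart. The 18 tested macrophage genes had a median of -0.56, beside -0.05 over all genes. Of these 18, 3 were called lower, C1qa (-0.85 ± 0.20), C1qc (-0.67 ± 0.22) and Mrc1 (-0.76 ± 0.24), a share near the 11.5% of all genes. C1qa was at 201, 204 and 168 CPM at TN and at 110, 113 and 94.5 CPM in the cold, without overlap. The list summed to between 3053 and 3228 CPM at TN and to between 1815 and 2135 CPM in the cold. The count of 3 became 1 when any single AKO library was left out and 0 without both muscle-containing ones, with the median at -0.53. It was 6 under DESeq2, 9 under voom and 10 with the 6 AKO libraries alone in the fit.

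Lymphocyte genes all had negative log2 fold changes, between -0.99 and -0.40, and 6 of 19 were called lower. The called genes were of B cells or shared by lymphocytes, such as Ms4a1 (-0.99 ± 0.30) and Cr2 (-0.96 ± 0.25). The T cell gene Cd3e overlapped between the groups (-0.53 ± 0.23). The list summed to 3378, 2113 and 2794 CPM at TN and to 1224, 1736 and 1862 CPM in the cold, and the inguinal pad holds a lymph node whose share in each sample was not tested. The count was 0 without cold AKO replicate 1, without TN AKO replicate 1 or without both muscle-containing libraries, 2 without TN AKO replicate 3, 11 without cold AKO replicate 3 and 14 without TN AKO replicate 2. It was 10 under DESeq2, 18 under voom and 3 with no filter. Proliferation genes had a median of -0.90 with 1 of 20 called lower, Aurka (-0.84 ± 0.27), a share below the 11.5% of all genes. The marker Mki67 was at 117, 59.8 and 52.3 CPM at TN and at 30.3, 30.1 and 40.1 CPM in the cold (-1.19 ± 0.47, adjusted p = 0.0794, edgeR). Aurka was not called when any single AKO library other than TN AKO replicate 2 was left out. The number of the 20 called lower was 2 without TN AKO replicate 2 and 1 without TN AKO replicate 3. DESeq2 called 10 of the 20 lower, voom 7 and the fit with the 6 AKO libraries alone 13. For 18 of the 20 the cold libraries lay below the TN ones without overlap, beside 25.6% of all genes.

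Of 24 collagen and matrix genes 6 were called lower and none higher, with a median of -0.35. Col1a1 (11:94936224-94953042), a chain of type I collagen, was at 1601, 1302 and 914 CPM at TN and at 445, 535 and 618 CPM in the cold (-1.26 ± 0.24), and Col3a1 and Fn1 were at -0.86 ± 0.20 and -0.94 ± 0.28. Of 16 genes of adipose progenitors and fibroblasts 4 were lower, including Fbn1 (-0.88 ± 0.16), Ly6a (-0.80 ± 0.17) and Dpp4 (-0.69 ± 0.19), which mark early progenitors, while F3 rose by 1.88 ± 0.34. The matrix count was 2 without cold AKO replicate 1, 3 without TN AKO replicate 1 and 1, Col1a1, without both muscle-containing libraries, where the median was -0.16. The progenitor count was 2 without cold AKO replicates 1 or 2 or TN AKO replicates 1 or 3, and 0 without both muscle-containing libraries. Of 16 endothelial genes 2 were called higher, Eng (0.60 ± 0.11) and Emcn (0.71 ± 0.21), a share below the 15.6% of all genes. This became 1 without any 1 of the cold libraries, TN AKO replicate 1 or TN AKO replicate 3, 3 without TN AKO replicate 2, 5 under DESeq2 and 6 under voom.

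**Figure D4:**
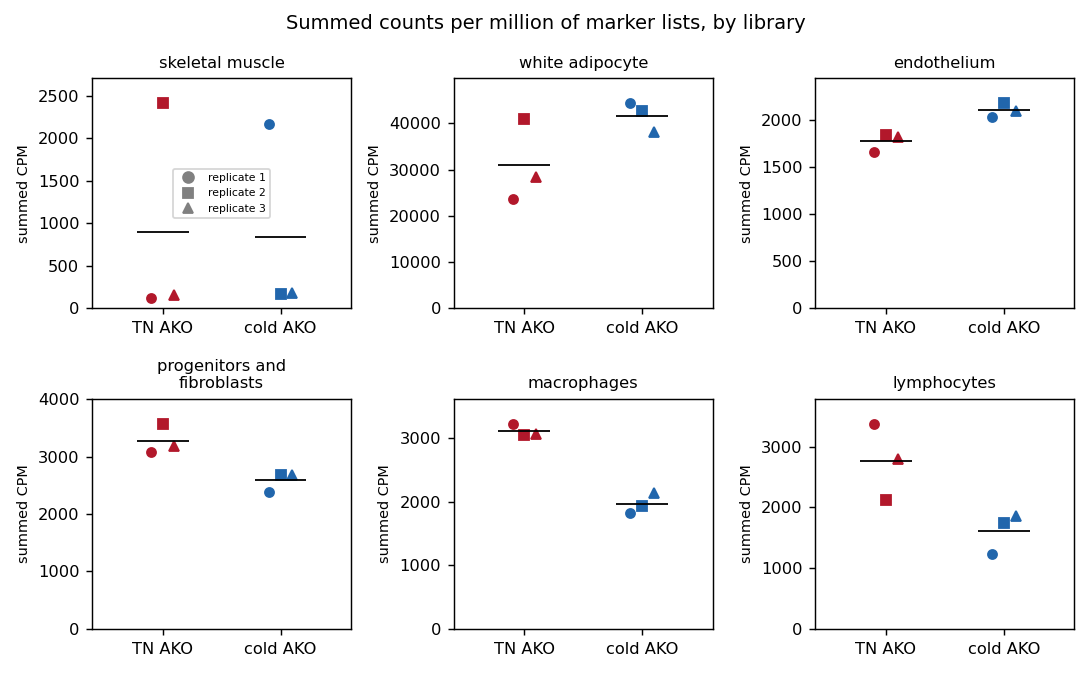
Summed CPM of 6 marker lists in each AKO library, with TN in red, cold in blue, a symbol for each replicate number and a line at the mean of 3. The skeletal muscle list is high in cold replicate 1 and TN replicate 2, and the macrophage list lies between 3053 and 3228 at TN and between 1815 and 2135 in the cold.

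The cold response of the AKO libraries was set against that of WT, with which it shares no library. In WT, 3259 genes differed between cold and TN (21.3%), 2389 higher (15.6%) and 870 lower (5.68%). The interaction of genotype and temperature, which tests whether the responses differ, called 0 of 15306 genes (0%) in edgeR, 0 in DESeq2 and 0 in voom. An unadjusted p under 0.05 was reached by 327 genes (2.14%) in edgeR, 380 in DESeq2 and 813 in voom. AKO and WT medians on the log2 scale were 4.17 and 4.18 for the thermogenic effectors, 1.94 and 1.72 for the TCA cycle and 1.61 and 1.40 for oxidative phosphorylation. Ucp1 rose by 11.37 in AKO and by 12.61 ± 0.82 in WT, with an interaction of -1.24 ± 0.85 that did not pass. Its mean was 1.77 CPM at TN and 4696 CPM in the cold in AKO, and 0.432 and 2638 CPM in WT. The WT fold change thus rests on a TN mean under 1 CPM, and the mean in the cold was the higher one in AKO.

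Interferon-stimulated genes had a median of -0.87 in AKO and -0.49 in WT, where none was called, and macrophage genes had -0.56 and 0.02. No interaction passed for any of these genes, so a difference between the genotypes was not shown for them. The macrophage list summed to 3266, 3256 and 1916 CPM in TN WT replicates 1, 2 and 3 and to 3191, 2914 and 1600 CPM in the cold WT ones. TN WT replicate 3 also held epithelial and mesothelial markers, summing to 457 and 65.9 CPM. These lists summed to at most 37.8 and 2.90 CPM in the other TN WT libraries. How far this moved the WT medians was not tested. The 5 genes with the smallest interaction p had an adjusted p of 1.00 each. Nav2, a cytoskeletal protein gene, went from 9.62, 7.44 and 9.33 CPM to 24.2, 18.1 and 15.4 CPM in AKO (1.13 ± 0.17) and stood at -0.03 in WT (interaction 1.16 ± 0.24, unadjusted p = 0.000612 in edgeR). Acot11 rose by 4.16 in AKO and 2.83 in WT, and Pydc3 was at -1.87 and -0.63. Syt6 and Hepacam were under 1 CPM, with interactions of -2.22 and 1.89.

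**Figure D5:**
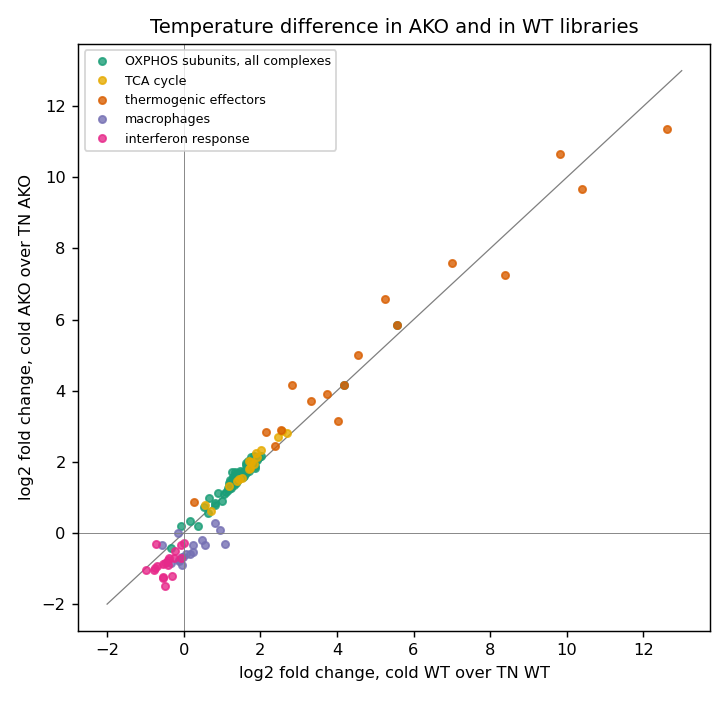
Log2 fold change of cold over TN in WT (horizontal axis) and in HIF2α AKO (vertical axis) for the tested members of 5 gene lists, with the line of equal change. Thermogenic and mitochondrial genes lie along the line, and the macrophage genes have medians of 0.02 in WT and -0.56 in AKO. The macrophage list summed to 1916 CPM in TN WT replicate 3, beside 3266 and 3256 CPM in the other TN WT libraries. It summed to 1600 CPM in cold WT replicate 3, beside 3191 and 2914 CPM in the other cold WT libraries.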

How the data were processed

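RNA-seq libraries of iWAT were compared between 3 cold and 3 TN HIF2α AKO samples, which the labels number as replicates. The p-values rest on the spread between libraries within all 4 groups, WT included. The deposited values are raw read counts per gene without normalization; per the submitters' processing notes, Trim Galore 0.4.4, STAR 2.6.1d, HTSeq 0.13.5 and DESeq2 1.30.0 were used with GRCm38/mm10. The annotation and the strand setting are not given in the sources used here, so reads of overlapping genes on opposite strands may not be told apart. HTSeq leaves out reads that align to several places, which lowers genes with near-identical copies.

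Counts were read from the table of 23420 genes, equal to the 12 per-sample files, and tallies of reads outside genes (22.5 to 25.6% in the AKO libraries) were left out. AKO libraries held 22368316 to 31152101 counts; a count of 0 allows up to 3, and this limit covers counting error only. Genes were filtered with filterByExpr (minimum count 10, minimum total 15) and fitted in edgeR 4.0.16 (R 4.3.3) with TMM normalization, all 12 libraries as 4 groups and quasi-likelihood tests, with Benjamini-Hochberg adjustment over all 15306 genes and a limit of 0.05. SE is the log2 fold change divided by the root of F. Lists are described by counts of called members and medians, with no test. Alternatives included DESeq2 1.42.0, voom (limma 3.58.1), other normalization, no filter, a block on replicate number and libraries left out. Deviations of same-numbered AKO libraries from their group means correlated at -0.43, -0.21 and 0.15. These values show no pairing by number, but deviations from means of 3 libraries cannot exclude one. The steps were tested on simulated data.

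The members and lists were chosen with earlier results of these data known. Genes named outside the lists are the 15 largest rises and 15 largest falls among called genes whose groups did not overlap, whose mean count reached 50 and whose unadjusted p stayed under 0.05 without the libraries holding muscle transcripts, muscle genes left out, and the 5 genes with the smallest interaction p. Gene positions are from GENCODE vM21, or from RefSeq for names it lacks. Listed genes not found in the table under the names used were not analysed here. Some listed genes are counted in their lists and not reported here by name.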

Additional observations from a re-analysis of the deposited data

Results flagged for a closer look

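Reads that aligned to more than 1 place, which are listed apart from the gene counts and enter no comparison of genes, took a mean of 7.76% ± 0.746 (SD, n = 3) of listed reads in the cold AKO libraries and 5.29% ± 0.365 in the TN AKO libraries. Every cold library was above every TN library (exact permutation test, two-sided p = 0.1, the smallest that 3 against 3 allows). In WT the share was between 6.30 and 9.33% in the cold and between 4.40 and 5.44% at TN. The part of these reads in the results was not tested.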

How the results depend on the processing

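The counting depth limits only genes with few counts, and the spread among 3 libraries a group limits the rest. Across the alternatives the direction of the change held for each gene named except Adipoq and Cpt1a, neither of which passed the test. Adipoq was at 0.011 under median-of-ratios scaling, no filter, DESeq2 and the 6 AKO libraries alone, 0.12 under voom, 0.28 without the muscle-containing libraries and between -0.18 and 0.26 with 1 library left out. Cpt1a was at -0.031 without the muscle-containing libraries and between -0.0067 and 0.50 with 1 library left out.

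The number of genes called was 1514 without the muscle-containing libraries (1239 higher, 275 lower), 1466 at an adjusted p under 0.01 (1221 and 245), 1063 with a log2 change of at least 1 (890 and 173) and 6140 under voom (3214 and 2926). With 1 AKO library left out, it was between 1613 and 4155, with 1299 to 2406 higher and 314 to 1749 lower. The share called higher was 57.5% in the reported fit, 65.0% with no filter, 77.9% without TN AKO replicate 1, 80.5% without cold AKO replicate 1, 81.8% without the muscle-containing libraries, 68.1% without cold AKO replicate 2 and 66.2% without TN AKO replicate 3. DESeq2 called 5336 genes. Fewer libraries enter the fits with samples left out, and other causes of these shifts were not tested. The interaction called 0 genes under each alternative, with between 256 and 813 at an unadjusted p under 0.05.

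Among the lists, voom called 5 higher and 4 lower of the fate markers and 9 higher for lipogenesis, and cholesterol genes called higher were 12 under DESeq2, voom or the 6 AKO libraries alone and 10 under the block. The matrix median was -0.16 without the muscle-containing libraries. With 1 library left out, medians moved between -0.55 and -0.055 for fate markers, -0.072 and 0.59 for creatine and calcium cycling, 0.038 and 0.29 for hypoxia genes, -0.68 and -0.50 for macrophages, 0.075 and 0.19 for the stress responses, -4.32 and 4.09 for skeletal muscle and -0.50 and 0.12 for erythrocytes. Other list medians moved by less than their spread.

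A block on replicate number, for which no pairing was shown, left 3313 genes called (2090 higher, 1223 lower), of which 3238 were among the 4138.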
